A study of Homo sapiens with 2 samples.

Results

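Of the 49245 interactions listed for the fusion protein TCF3::HLF, 106 had at least 1 end in BCL6 or LPP, neighboring genes on the long arm of chromosome 3. An interaction in this list is a pair of 5-kb bins of hg38 that were joined by more read pairs than the caller's background gave. The members were found with a positional rule, namely that either bin overlaps the annotated body of BCL6 or LPP or the 10 kb on each side of it. Positions of both genes came from GENCODE release 44. All 106 interactions touched LPP and 4 of them touched BCL6, so that every listed interaction of BCL6 ended in LPP. The locus itself was chosen by the contact counts of this list, in which a strong BCL6 to LPP interaction had been seen, so the presence and the strength of these contacts are a description and not a test.

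The HiChIP, which combines chromatin immunoprecipitation with proximity ligation to recover DNA that lies close together in the nucleus, was carried out in HAL-01, an established leukemia cell line with t(17;19) and therefore with TCF3::HLF. Cells expressed Cas9GFP and had been selected for stable knockout of wild-type TCF3 with an sgRNA, and the pull-down used an E2A antibody, E2A being the other name of TCF3. The design held 1 condition with 2 replicates of the same cell line, all with this genotype, and no untreated arm, parental line or control antibody was analysed here. Replicates were pooled by the authors ahead of calling, so no value below has a replicate error and no test between conditions can be run. A contact count is the number of read pairs that link both bins and is given with an exact Poisson 95% interval, which covers counting error only. Over the whole list the contact counts summed to 1268490, with a median of 24 per interaction and a range from 7 to 615.

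BCL6 is a transcriptional repressor of the BTB zinc finger family. It is required for germinal-center B cells, where it silences genes of cell-cycle arrest, DNA damage response and plasma cell differentiation, and it is a frequent target of rearrangements in B cell lymphoma. LPP encodes a LIM domain protein of the zyxin family that sits at focal adhesions and cell-cell contacts and shuttles to the nucleus, it is a long gene with large introns, and it has been found joined to BCL6 in lymphoma. HLF is a bZIP factor of the PAR family, and TCF3::HLF contacts DNA through the HLF part only. In HiChIP, regions linked to a promoter are read as candidate distal elements of that gene, without showing that they act on it.

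BCL6 (ENSG00000113916.18) covers chr3:187721377-187745725 on the minus strand, 24.3 kb with 10 exons in the canonical transcript. LPP (ENSG00000145012.15) covers chr3:188153284-188890671 on the plus strand, 737 kb with 12 exons in the canonical transcript. The gene starts therefore face each other across a gap of 408 kb. This gap holds long noncoding genes, among them LINC01991 at chr3:187958775-187976407, and TPRG1 at chr3:188947214-189325304 follows LPP on the other side.

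The HLF recognition sequence was searched on both strands of each bin as an exact match to TTACGTAA, which reads the same on both strands, or TTATGTAA, which reads TTACATAA on the other strand. Over the whole list 31.5% of the 53535 bins that serve as an end of an interaction (anchor bins) held at least 1 match, and 2.32% held TTACGTAA. The following windows of the hg38 reference are shown because they lie in bins of BCL6, in the dense LPP bin that holds the motif, in the LPP bin with TTACGTAA, or in the bins of LINC01991 and TPRG1 with the strongest contacts to LPP. Each is written 5′ to 3′ along the strand of the match, and capitals mark the matched motif. The LPP bin starting at 188535001 and the LINC01991 bin starting at 187965001 hold 2 matches each, of which 1 is shown.

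BCL6 start bin, chr3:187746232-187746261, plus strand: agtttgtggtgTTACGTAAatcacaggatc
BCL6 intron, chr3:187730540-187730569, minus strand: ctgcctgttctTTATGTAAactttcatcag
LPP intron, chr3:188358189-188358218, minus strand: ccttgggcaaaTTATGTAAcatctctggat
LPP intron, chr3:188358208-188358237, minus strand: ttatattattaTTATGTAAccttgggcaaa
LPP intron, chr3:188535272-188535301, plus strand: ttttggaagttTTACGTAAcagaatatacc
LINC01991, chr3:187967273-187967302, minus strand: agcaaattcggTTATGTAAagcacattctg
LINC01991 start bin, chr3:187976880-187976909, plus strand: gcacttacaatTTATGTAActggattagta
TPRG1, chr3:189040027-189040056, plus strand: ccttaagggagTTATGTAAgctctttctat

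The TTACGTAA in the BCL6 start bin lies 518 bases upstream of the annotated BCL6 start, outside any annotated gene. This form is rare in such bins, as it occurred in 1.86% of the 52566 bins with an annotated start of a protein-coding gene and in 3.06% of the 6735 of them that are anchor bins. A match says only that these letters are in the bin, and binding at single sites was not analysed here.

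BCL6 contacted LPP through its start bin and through its gene body. The start bin, chr3:187745001-187750000, holds the gene start and 5 of the 11 annotated BCL6 transcript starts, and it took part in 2 interactions. It also holds the start of the noncoding gene ENSG00000289331 and part of the gene ENSG00000285938, whose contacts cannot be told apart from those of BCL6 at this bin size. The stronger reached the LPP bin starting at 188295001, 550 kb away in intron 2 of LPP, with 82 contacts (65.2 to 102.0; q-value 3.29e-56). The other reached the LPP bin starting at 188435001, 690 kb away in intron 4, with 48 contacts (35.4 to 63.6; q-value 1.30e-25). The first of these was 1.71 times the second, with an exact conditional 95% interval of 1.18 to 2.49 for counting error.

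Both interactions of the gene body were weaker and ended in the same LPP bins. The bin starting at 187735001, in intron 1 and with another BCL6 transcript start, had a contact count of 23 (14.6 to 34.5; q-value 2.13e-06) with the bin at 188295001, 560 kb away. The bin starting at 187730001 covers exons 2 to 5 and the intron motif shown above. It also holds a BCL6 transcript start and part of the gene ENSG00000228804. Its contact count with the bin at 188435001, 705 kb away, was 18 (10.7 to 28.4, q-value 1.33e-04). The start bin thus had 3.57 times (2.22 to 5.93) the contact count of the first intron with the bin at 188295001. With the bin at 188435001 it had 2.67 times (1.52 to 4.87) that of exons 2 to 5. Since both gene body bins also hold BCL6 transcript starts, these ratios do not set a promoter against sequence without one. The counts are not normalized for the coverage of each bin, and differences in coverage were not tested. All 4 interactions were listed as single bin pairs, against 92.3% of the whole list, and none of the pairs shared a 31-base stretch of sequence.

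Contact counts fall with distance, so each was set beside all listed interactions within 5 kb of its own distance. At 550 kb the median contact count of 345 such interactions was 22, which put the BCL6 start bin at 3.73 times the median and at rank 1. At 690 kb the median of 258 interactions was 21, with the second start bin interaction at 2.29 times the median and at rank 3. The gene body interactions were at 1.00 and 0.783 times their medians. Among the 14538 interactions of 500 kb or more, which had a median contact count of 22, the strongest BCL6 interaction ranked 5, and among all 49245 it ranked 205.

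The same contact counts, by which the locus was chosen, were also ranked among gene starts, as a description only. Of 19418 protein-coding genes, 5218 (26.9%) had a transcript start in an anchor bin, and 12.8% of the 52566 bins with such a start were anchor bins. The median of the largest contact counts of these genes was 28. BCL6, with 82, ranked 53 among these genes. LPP, whose start bin at 188150001 reached a contact count of 49, ranked 344. By number of interactions the order was the opposite, since LPP with 106 ranked 5 of all protein-coding genes, whereas BCL6 with 4 ranked 4271 and 905 other genes had the same number. These ranks by number were not adjusted for gene length.

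BCL6 and LPP were likewise placed among gene pairs at such a distance, again with the contact counts by which the locus was chosen. Among 7591 pairs of protein-coding genes with a gap of 200 kb to 1 Mb that were joined by at least 1 interaction, 80.5% were joined by 1 only, and the median of the largest contact count was 24. BCL6 and LPP, joined by 4 with a largest contact count of 82, ranked 91 by number, with 105 other pairs at the same number, and 8 by largest contact count. The pairs most like them in both measures were GALNTL6 and SCRG1 (4 interactions, largest contact count 74, gap 343 kb), RABGAP1 and CRB2 (4, 70, 251 kb), KIF3C and HADHA (5, 79, 208 kb), SRPRB and RYK (4, 64, 240 kb), and SMIM2 and TSC22D1 (5, 92, 271 kb). The likeness is the distance in log2 number and log2 largest contact count, which was between 0.148 and 0.362 for these 5 pairs.

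**Figure D1:**
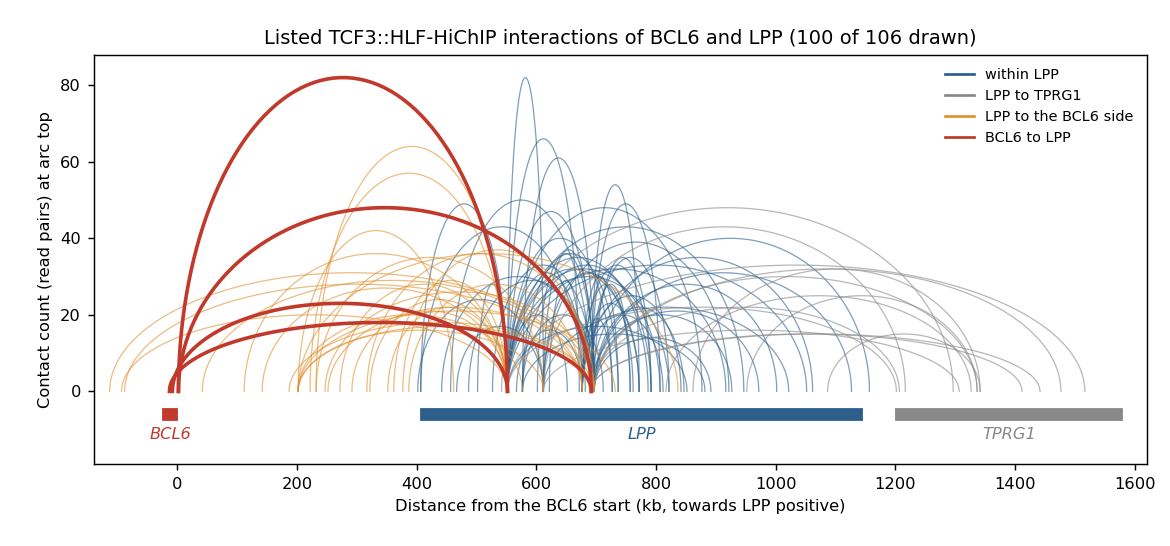
Listed interactions of BCL6 and LPP as arcs whose feet stand at the centers of the bins (x axis, kb from the BCL6 start, positive towards LPP) and whose tops give the contact count (y axis, read pairs); 100 of 106 are drawn and the others reach further than the axis. All 4 BCL6 arcs (red) land at the same pair of LPP bins, near which most arcs within LPP (blue), towards BCL6 (orange) and towards TPRG1 (grey) also meet.

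The remaining interactions stayed within LPP or left it on either side. Within LPP lay 56 interactions (52.8%), with a median contact count of 31.5 (range 14 to 82) and a median distance of 162 kb. On the BCL6 side, without touching BCL6, 32 interactions (30.2%) had a median contact count of 28 (16 to 64) and a median distance of 432 kb. On the TPRG1 side, 14 interactions (13.2%) had a median contact count of 25 (15 to 48) and a median distance of 645 kb. Taken as one set, the 106 interactions had a median contact count of 30 (95% interval of the median, 28 to 32) and a median distance of 302 kb, beside 24 and 255 kb in the whole list.

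The members were also placed against the list at like distance, again with the contact counts by which the locus was chosen. This is a description only. Their contact count was above the median at like distance in 72 of 106 (67.9%; Wilson 95% interval, 58.5 to 76.0), where 48.0% of the whole list was. This was so for 41 of the 56 interactions within LPP, 21 of the 32 on the BCL6 side, 8 of the 14 on the TPRG1 side and 2 of the 4 of BCL6. A q-value under 1e-05 was listed for 82 of 106 (77.4%; 68.5 to 84.3), beside 66.5% of the whole list. Distances of 500 kb or more were seen in 29 of 106 (27.4%; 19.8 to 36.5), beside 29.5%. Since most members share a few bins, they are not independent of each other, and these intervals are too narrow for that reason.

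A small number of LPP bins were an end of nearly all of these listed interactions. The caller used MACS2 peaks as reference. Where peaks lie in LPP was not analysed here, and their part in this concentration was not tested. Of 153 bins in LPP and its flanks 56 were anchor bins, and 6 of them took part in 10 or more interactions each. These 6 lie within 150.0 kb of each other, make up 3.96% of the LPP window, and were an end of 98 of the 106 interactions (92.5%). Among all anchor bins 2.1% had 10 or more interactions, beside 6 of the 59 in BCL6 or LPP (10.2%; 4.74 to 20.5). Over the length of LPP divided into 4 equal parts from its start, the number of interaction ends was 52, 76, 23 and 7, on 11, 16, 19 and 7 anchor bins. Thus the part of LPP nearest its 3′ end was the poorest in contacts. Of the 97 anchor bins in the members, 78 (80.4%) were used in 1 member interaction each. In the whole list 78.0% of anchor bins were used in 1 interaction of any kind. The measures differ, since some of the 78 bins also had interactions outside the members.

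The bin starting at 188295001, in intron 2, was the densest. It was an end of 33 interactions, rank 20 of all 53535 anchor bins, with 16 of them towards BCL6 and 17 towards TPRG1. Their contact counts ran from 17 to 82 with a median of 32, over distances from 50 to 2365 kb, and 24 of the 33 were above the median at like distance. In 17 of the 33 the other bin lay in LPP as well, and in 2 it lay in BCL6.

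A cluster of 3 bins in intron 4 came next, all of them without a BCL6 contact except the bin at 188435001. At 188440001 there were 18 interactions (contact counts 14 to 61, median 31), of which 15 were above the median at like distance. The adjoining bin at 188435001 had 16 (15 to 54, median 28), 2 of them with BCL6. In the bin at 188420001 there were 14 (16 to 43, median 28). The remaining bins with 10 or more were at 188355001 in intron 3, with 11 interactions (16 to 82, median 31), and at 188320001 in intron 2, with 10 (15 to 61, median 33). No annotated LPP transcript starts in any of the 6 bins, so they are intronic bins and not alternative LPP promoters in this annotation.

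Several of the dense bins also contacted each other. Between the bins at 188295001 and 188355001, 60 kb apart, 82 contacts were counted (65.2 to 102.0), as high as the strongest BCL6 interaction but at a shorter distance, where it was 3.15 times the median. Those at 188320001 and 188440001, 120 kb apart, had 61 (46.7 to 78.4). Between 188295001 and 188440001, at 145 kb, it was 47 (34.5 to 62.5), and between 188355001 and 188440001, at 85 kb, it was 37 (26.1 to 51.0). The last 3 stand for merged groups of neighboring bin pairs, which also cover the bin at 188435001. Pairs with the bin at 188420001 were not listed, and bins under 50 kb apart are outside the distances called.

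The exact HLF motif was found in few of the dense bins. Of the 6 bins, 1 held it (16.7%; 3.01 to 56.4), namely the bin at 188355001 with both intron 3 sequences shown above. Over the whole list 751 of the 1126 bins with 10 or more interactions held it (66.7%; 63.9 to 69.4). In LPP as a whole the motif occurred in 18 of 56 anchor bins (32.1%; 21.4 to 45.2) and in 43 of 97 bins that are no anchor (44.3%; 34.8 to 54.2), and the intervals overlap. In BCL6 it occurred in 2 of 3 anchor bins and in 1 of 7 others.

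By interaction, 50 of 106 had the motif in at least 1 bin (47.2%; 37.9 to 56.6), beside 66.8% of the whole list. In 4 of 106 it was in both bins (3.77%; 1.48 to 9.3), beside 16.2%. All 4 of these had the bin at 188355001 as an end, with contact counts of 43, 35, 22 and 16. TTACGTAA was in a bin of 5 of 106 interactions (4.72%; 2.03 to 10.6), beside 8.34%. These 5 were both interactions of the BCL6 start bin and the 3 of the LPP bin at 188535001. As most members have a dense bin as an end, the share over interactions is not independent of those 6 bins. Among the partners of the densest bin, 15 of 33 (45.5%) held the motif.

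A wider search, added after these values were seen, included the related forms TTGCGTAA and TTGCATAA. With any of the 4 forms, 87 of 106 interactions (82.1%) had a match, beside 81.8% of the whole list. The densest bin at 188295001 and the bin at 188440001 then had 1 match each, so that 3 of the 6 dense bins did, beside 82.3% of the 1126 such bins in the list. These matches are shown in the same way, with capitals for the added form.

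LPP bin at 188295001, match at chr3:188297165-188297172, minus strand: ttcaattggtgTTGCATAAgtagattaacc
LPP bin at 188440001, match at chr3:188440851-188440858, plus strand: catagaaaactTTGCATAAagaaaggcaac

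In the list, the stretch between BCL6 and LPP was joined to LPP and not to BCL6, whose bins under 50 kb away were not called. Of 33 interactions with a bin there, 23 reached LPP, 7 stayed within the stretch, 3 reached elsewhere and 0 reached BCL6. Its strongest contacts came from LINC01991, a long noncoding gene. The bin with its start, at 187975001, had a contact count of 64 (49.3 to 81.7) with the bin at 188295001, 320 kb away, at 2.67 times the median at like distance. A further bin of the gene, at 187965001, had 57 (43.2 to 73.9) with the same LPP bin. With the LPP bin at 188355001, the LINC01991 start bin had 35 (24.4 to 48.7). All 3 were lower than the 82 of the BCL6 start, which lies further from LPP, but the intervals of the contact counts of 64 and 57 overlap that of BCL6.

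A second noncoding gene in the stretch, ENSG00000236864, had the bin with the most connections there. This bin, at 187945001, took part in 12 interactions, 6 of them with LPP. Its contact counts with LPP were 42 (30.3 to 56.8), 36 (25.2 to 49.8), 21, 20, 17 and 16. The highest was with the bin at 188205001, which is none of the 6 dense bins. Of these 6 contact counts, 2 were above the median at like distance. Their ratios to that median had a median of 0.912. The start bin of the noncoding ENSG00000234238, next to the LPP start, had 29 (19.4 to 41.6) with the bin at 188295001.

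The LPP start was linked to dense bins as well. The bin at 188150001, which holds the starts of LPP and of the antisense gene LPP-AS2, had a contact count of 49 (36.3 to 64.8) with the bin at 188295001, 145 kb away, at 2.04 times the median at like distance. It had 43 (31.1 to 57.9) with the bin at 188420001, 270 kb away. Its contact count of 49 was lower than the 82 of the BCL6 start with the same bin, which lies 550 kb from BCL6. The intervals do not overlap, but they cover counting error only. Neither count is normalized for the coverage of its bins, and a difference in coverage was not tested. Strand was not part of the assay, so contacts of LPP and of LPP-AS2 cannot be told apart.

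Other strong interactions within LPP also ended in the dense bins. The bin at 188415001 had 66 contacts (51.0 to 84.0) with the bin at 188295001, 120 kb away. From 188435001, contact counts were 54 to the bin at 188515001, 50 (37.1 to 65.9) to the bin at 188200001 and 49 to the bin at 188550001. From 188295001, they were 48 to the bin at 188620001 and 43 to the bin at 188690001. The last of these adjoins MIR28, a microRNA gene in an LPP intron at chr3:188688781-188688866, whose own bin was in 0 interactions.

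On the far side of LPP the contacts ended in TPRG1, a gene named as regulated by TP63. The strongest joined the LPP bin at 188285001, 2 bins before the densest one, with the TPRG1 bin at 189040001 that holds the sequence shown above. Its contact count was 48 (35.4 to 63.6) at 755 kb, the second highest at like distance. The bin at 188355001 had 43 (31.1 to 57.9) with the bin at 188960001, at 605 kb. The start bin of TPRG1, also that of TPRG1-AS1, had 22 (13.8 to 33.3) with the bin at 188295001. In all, 12 TPRG1 bins were reached, and 1 of them held a transcript start.

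Beyond BCL6, LPP bins reached bins of other genes that lie more than 1 Mb from them. In total 11 interactions spanned BCL6 without touching it and 9 of them reached LPP, with a largest contact count of 38. That one joined the start bin of RPL39L, a ribosomal protein paralog, to the LPP bin at 188320001, 1140 kb away (26.9 to 52.2). The same LPP bin had 33 (22.7 to 46.3) with the start bin of RFC4, a replication factor C subunit, at 1520 kb. It also had 36 (25.2 to 49.8) and 29 (19.4 to 41.6) with bins of IGF2BP2, an mRNA-binding protein, at 2555 and 2545 kb. The densest bin at 188295001 had 26 (17.0 to 38.1) with the start of ST6GAL1, a sialyltransferase, at 1365 kb and 22 (13.8 to 33.3) with the start of TRA2B, a splicing regulator, at 2365 kb. Contact counts of these 6 were 22 to 38, below both of the BCL6 start bin, though the intervals of 5 of the 6 overlap that of the 48 found there. The other 3 ended within 200 kb of BCL6, in bins without a transcript start, with contact counts of 31, 28 and 20.

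Beside other long genes LPP was dense in interactions. It had 14.0 interactions per 100 kb of gene and flanks, which ranked 2 among 317 protein-coding genes of 500 kb or more, where the median was 1.09. NFIA had 16.5 and DENND1A 13.5. Among protein-coding genes of any length it ranked 1476 on the same measure.

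When the interactions of the densest bin at 188295001 were left out, 73 of 106 remained, with a median contact count of 29, and without all 6 dense bins 8 remained. Of these 8, 3 joined LPP with the bin of ENSG00000236864 and 5 joined it with TPRG1. No interaction of BCL6 was among them, since each ends in a dense bin.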

How the data were processed

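TCF3::HLF-HiChIP (MNase-based) was performed in TCF3-KO HAL-01 cells in 2 replicates. Per the methods, the authors trimmed reads with Trim Galore 0.6.6, merged replicates, aligned to hg38 with BWA, parsed pairs without removing duplicates, used MACS2 peaks as reference and called FitHiChIP interactions of 5-kb bins at distances of 50 kb to 3 Mb (q-value threshold 0.01), then merged nearby pairs. The FitHiChIP version is not given in the sources used here. Since duplicates were kept, read pairs are not all independent molecules, and counting intervals are lower limits of the error. The deposited contact counts are read pairs per bin pair without normalization, and sumCC is their count over a merged group. The deposited p-value and q-value come from the caller's background for distance and coverage. The deposited fraction tells which part of a merged group's bin pairs was significant. A pair absent from the list missed the threshold, lay outside the distances called or is represented by a neighboring pair. It may also have been left out through the use of peaks as reference. Absence is therefore no measured 0, and the list is not a map of all contacts.

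Members, gene lists, motif forms and tests were chosen with earlier results of these data known. Named are BCL6, LPP, the 10 other genes with the largest contact counts to LPP at their start, the strongest interactions of each gene, the 5 bins with the most interactions and the 5 most similar gene pairs; the bins at 188320001 and 187945001, IGF2BP2, MIR28 and the pairs of dense bins were chosen after their values were seen. A gene of the corepressor list is not reported here, so that list is counted over its other 7 genes. No test between groups was possible. Intervals are exact Poisson, Wilson, exact conditional binomial or order-statistic intervals at 95%. Alternatives were stricter q-values, at least 20 contacts, a limit of 1 Mb on distance, other gene margins, merged ranges, sumCC, other motif forms and left-out bins. Overlap, motif search and intervals were tested on simulated data. Tables were handled with pandas 2.3.3 and numpy 2.4.6 under Python 3.11.15, intervals with scipy 1.17.1, sequence with samtools 1.23.1 and pyfaidx 0.9.0.4, and plots with matplotlib 3.10.9. Sequences are from hg38, and 0 listed bins passed a chromosome end.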

Additional observations from a re-analysis of the deposited data

How the results depend on the processing

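Of 56 alternative values, 46 stayed within the spread set for each result and 10 moved. The 106 interactions became 97 and 82 at q-values under 0.001 and 1e-05, 92 with a contact count of at least 20, 100 within 1 Mb and 113 with 50 kb around the genes, and stayed at 106 with the gene body alone or with merged bin ranges. Those touching BCL6 rose from 4 to 10 with 50 kb around the genes, 6 of them joined to LPP, and fell to 3 at a q-value under 1e-05 or a contact count of at least 20. The median contact count was 32.5 at a q-value under 1e-05. With TTACGTAA alone, the share with a motif was 4.72% of interactions and 3.39% of anchor bins. The rank of the strongest BCL6 interaction at like distance was 2 by sumCC and 2 within 50 kb of its distance. BCL6 and LPP ranked 381 among 17485 gene pairs by number of interactions and 191 by summed contact counts. Of the alternatives chosen after seeing the data, leaving out the 6 dense LPP bins left 8 interactions, BCL6 alone had 4, and with TTGCGTAA and TTGCATAA added the motif share was 82.1%. The cause of these differences was not tested beyond what each alternative changes by construction. No paired analysis was possible because the list used here was called on merged replicates, and for the same reason leaving out each replicate was not run. Depth limits the weakest members, as the lowest contact count of 14 has a counting interval of 7.65 to 23.5.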

Other observations

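Genes that work with BCL6 were counted in the list, where 64.1% of all protein-coding genes had at least 1 interaction, with a median of 1 per gene. Corepressors and regulators were touched in shares near that of all genes, and the medians were not matched for gene length. Of 7 BCL6 corepressors, 5 were touched, with a median of 4 interactions. BCOR had 21 with a largest contact count of 57 (43.2 to 73.9), and TBL1XR1 had 10 with a largest of 33 (22.7 to 46.3), whereas HDAC3 and CTBP1 had 0. Of 10 known regulators of BCL6, 7 were touched, with a median of 6. The myocyte enhancer factor MEF2C had 59, with a largest contact count of 322 (288 to 359), and the forkhead factor FOXO1 had 39 with a largest of 45 (32.8 to 60.2). PAX5 had 13 and IRF8 had 7, and IRF4, SPI1 and MEF2B had 0. These genes differ in length. Per 100 kb of gene and flanks FOXO1 had 29.8, MEF2C 28.5, IRF8 16.1, BCOR 14.2, STAT5A 11.3 and FOXO3 7.59 interactions. The other touched genes of both lists had fewer, with PAX5 at 5.88, TBL1XR1 4.37, MTA3 3.54, STAT5B 2.74, CTBP2 2.03 and NCOR1 1.43. A median of this measure over all genes is not given here.

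Of 13 genes known as BCL6 targets in B cells, 11 were touched, with a median of 3. The share for these and for the relatives below stands beside 64.1% of all protein-coding genes. BCL2, the antiapoptotic gene, had 16 with a largest contact count of 44 (32.0 to 59.1), PRDM1, the plasma cell regulator, had 9 with a largest of 38 (26.9 to 52.2), and ATR, the damage kinase, had 5 with a largest of 45 (32.8 to 60.2). The cell-cycle inhibitor CDKN2A and the kinase CHEK1 had 0. These numbers were not matched for gene length. Per 100 kb of gene and flanks GPR183 had 15.2, S1PR1 14.9, CD69 10.6, CDKN1B 8.79, BCL2 7.38, PRDM1 6.59, CCND2 3.6 and ATR 3.34. The other touched targets had fewer. Of 6 BTB zinc finger relatives of BCL6, 5 were touched. By number they were led by ZBTB16 with 10 and a largest of 59 (44.9 to 76.1). ZBTB20, a gene of 833 kb, had 0. Per 100 kb of gene and flanks ZBTB1 had 10.0, ZBTB17 7.37, ZBTB16 4.59, BCL6B 3.67 and ZBTB7A 2.29.

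Among LPP's zyxin family and partners, 6 of 11 were touched, with a median of 1, beside 64.1% of all protein-coding genes. The family members themselves had few, with ZYX and LIMD1 at 1 each and TRIP6, AJUBA, WTIP and FBLIM1 at 0. The partners of the family ranged more widely, from 0 for VASP and 1 for SCRIB to ACTN1 with 19 and a largest contact count of 46 (33.7 to 61.4), EVL with 11 and ENAH with 8 and a largest of 60 (45.8 to 77.2). None of them had as many as LPP with 106, but these numbers were not matched for gene length. Per 100 kb of gene and flanks ACTN1 had 15.2, above the 14.0 of LPP. The other touched genes had fewer than LPP, with EVL at 5.71 and ENAH at 4.29. All counts cover the gene bodies with 10 kb on each side and were not tested as sets.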
